A study of Mus musculus with 2 samples.

Results

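Some proteins of the translation machinery are encoded by a pair of paralogous genes, and 3 such pairs were measured here in adult mouse heart, namely Rpl3l and Rpl3, Eef1a2 and Eef1a1, and Rpl22l1 and Rpl22. The 6 genes were chosen by symbol, out of 55536 annotated genes, and each symbol matched 1 gene. The data are total RNA-seq with ribosomal RNA reduced, with 1 library from the heart of each of 2 male B6CASTF1/J mice at an age of 2 months. These animals from The Jackson Laboratory are first-generation offspring of a cross between B6 and CAST, they carry no transgene or treatment in the labels, and they form the single group of the study. Both libraries point to one donor entry although the males bear different numbers, so treating them as 2 animals is an interpretation, and the spread between them may be partly technical. There is no other tissue and no second condition, so what follows are levels, ratios within a library and the difference between the mice, and the smallest 2-sided exact paired p that 2 mice allow is 0.5.

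Rpl3l and Rpl3 encode alternative forms of the large-subunit protein uL3, which reaches towards the peptidyl transferase centre where the ribosome joins amino acids. Rpl3l is the form of striated muscle and Rpl3 that of most tissues. Eef1a2 and Eef1a1 encode the elongation factor eEF1A, a GTPase that brings aminoacyl-tRNA to the ribosome; Eef1a2 is the form of adult skeletal muscle, heart and neurons, while Eef1a1 is widespread. Rpl22l1 and Rpl22 encode forms of eL22, a protein on the outer face of the large subunit, and in mouse Rpl22 protein is known to bind Rpl22l1 RNA and to lower its level. Both Rpl22 genes are known from many tissues, so muscle restriction is not part of the description of that pair.

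Reads can be told apart between the members of each pair, but not equally well between Rpl3 and a processed copy of it, and the sequences behind this are shown because the ratio of Rpl3l to Rpl3 turns on them. The coding sequences of Rpl3l and Rpl3 are 74.4% identical over the aligned bases, those of Eef1a2 and Eef1a1 80.1%, and those of Rpl22l1 and Rpl22 70.2%. No word of 31 bases occurs in both members of any pair. The longest run of identical bases that the coding sequences of a pair share has 22 bases in Rpl3l and Rpl3 (mm10 chr17:24728458-24728479 on the plus strand, and chr15:80082420-80082441 on the minus strand), 23 in the eEF1A genes and 26 in the eL22 genes, the last 2 across an exon junction.
Shared by Rpl3l and Rpl3: tacaaggctggcatgacccaca
Shared by Eef1a2 and Eef1a1: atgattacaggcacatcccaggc
Shared by Rpl22l1 and Rpl22: ttctccaaaaggtatttgaaatatct

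Rpl3-ps1 is annotated as a processed pseudogene on chromosome X (mm10, 13202571 to 13203780, plus strand). All of its 1210 bases align with the main Rpl3 transcript, Rpl3-201, without a gap and with 99.8% identity. Within it the reference sequences of the gene and the copy differ at 2 bases, C58A and T787C, counted from 1 at the first base of the copy, with the base of Rpl3 first. The 4 stretches of 21 bases centred on these positions are given with the differing base in capitals.
Rpl3, chr15:80082519-80082539, minus strand: tcctgcctcgCaagcgcagca
Rpl3-ps1, chrX:13202618-13202638, plus strand: tcctgcctcgAaagcgcagca
Rpl3, chr15:80079743-80079763, minus strand: ctgcccgtgtTgccttctctg
Rpl3-ps1, chrX:13203347-13203367, plus strand: ctgcccgtgtCgccttctctg
A read that lies wholly within the rest of these 1210 bases matches both loci alike, and the alleles that the CAST parent carries at these positions were not examined.

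The deposit holds 3 tables per mouse: a gene table and a first transcript table, both made from alignments, and a second transcript table made from the reads without them. The gene tables hold 39177981 expected counts for replicate 1 and 44544839 for replicate 2. All 6 cardiomyocyte markers examined (Myh6, Actc1, Tnnt2, Tnni3, Ryr2 and Pln) were present, with a summed level of 20913 and 22766 TPM (a level corrected for transcript length and set against the sum over all transcripts). Of 6 fast skeletal muscle markers none reached 1 TPM in both mice, their sum was 1.08 and 1.93 TPM, and the defining myosins Myh2 and Myh4 were listed at 0. Of 6 neuron markers none reached 1 TPM, with sums of 0.37 and 0.23 TPM, so the defining markers of both cell types were at or near 0. Endothelium, fibroblast, pericyte and smooth muscle, and macrophage markers were present, 4 of 4 for each, with sums from 34.3 to 187 TPM. In bulk tissue, fewer cells of a type and less RNA per cell cannot be told apart. Sums of the 4 red cell markers were 13712 TPM in replicate 1 and 4292 TPM in replicate 2.

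For 2 of the 3 pairs the muscle form had the higher level. In the third, whose genes are both known from many tissues, Rpl22 had it. In the gene table Rpl3l stood 3.35 ± 0.116-fold above Rpl3, and Eef1a2 stood 1.63 ± 0.0771-fold above Eef1a1 (SD, n = 2 mice). Rpl22l1, by contrast, lay below Rpl22, which was 2.83 ± 0.00108-fold higher. From high to low, the mean levels followed the order Eef1a2, Eef1a1, Rpl3l, Rpl22, Rpl3 and Rpl22l1 in both the gene table and the second transcript table. No neighbours in this order overlapped between the mice in either table.

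**Figure D1:**
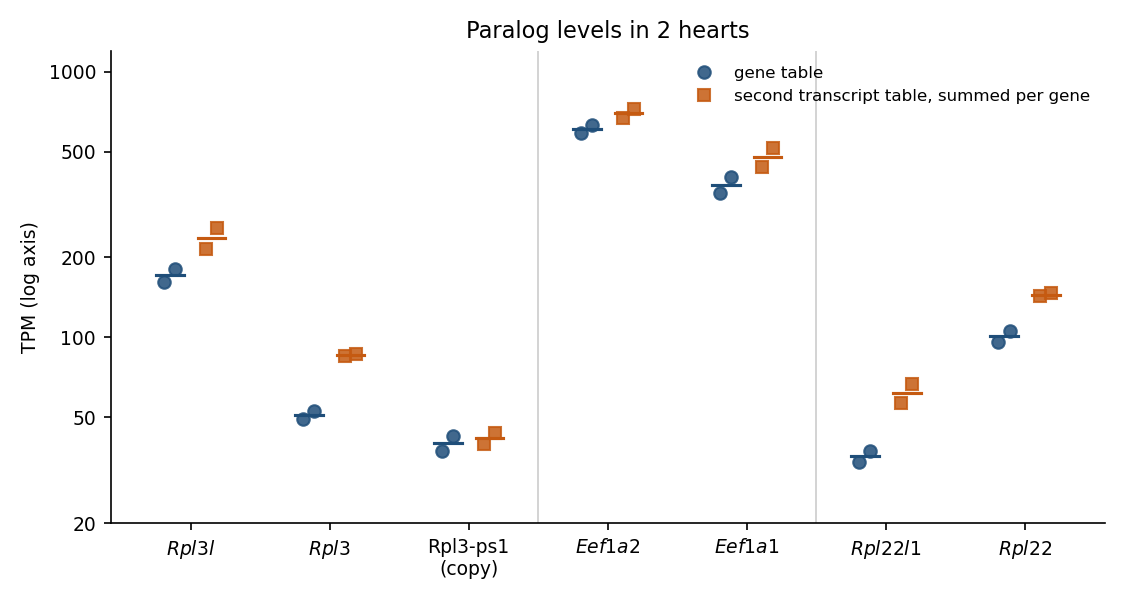
Level (TPM, log axis) of each paralog, of its parent gene to its right, and of the processed copy Rpl3-ps1, with 1 point per mouse and a line at the mean of the 2 mice. Circles are the gene table and squares the second transcript table summed per gene; Rpl3l at 162 and 181 TPM lies above Rpl3 at 49.5 and 52.7 TPM, while Rpl22l1 at 34.1 and 37.3 TPM lies below Rpl22 at 96.5 and 106 TPM.

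Rpl3l (ENSMUSG00000002500.15; mm10 chromosome 17, 24727820 to 24736143, plus strand) had 162 TPM in replicate 1 and 181 TPM in replicate 2. Rpl3 (ENSMUSG00000060036.14; chromosome 15, 80077791 to 80091868, minus strand) had 49.5 and 52.7 TPM. The values of the 2 genes did not overlap, and neither did the intervals that the authors deposited with them. The lowest bound for Rpl3l was 155 TPM and the highest bound for Rpl3 was 56.7 TPM. Such bounds surround the deposited posterior mean TPM and need not hold the TPM itself. For Eef1a2 in replicate 1 they were 570 and 581 TPM, below its TPM of 588. Behind these levels stood 6349 and 8092 expected counts for Rpl3l against 1462 and 1868 for Rpl3. The log2 ratio of Rpl3l over Rpl3 was 1.71 in replicate 1 and 1.78 in replicate 2, 1.74 ± 0.05 on average, and Rpl3l held 77.0 ± 0.611% of their summed TPM. In the second transcript table Rpl3l had 215 and 258 TPM and Rpl3 had 85.3 and 86.9 TPM, a log2 ratio of 1.45 ± 0.17 and a fold of 2.74 ± 0.315.

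The copy Rpl3-ps1 carried nearly as many expected counts as Rpl3 itself in the gene table. It stood at 37.4 and 42.5 TPM there and at 39.6 and 43.8 TPM in the second transcript table. Its 1288 and 1663 expected counts were 47.0 ± 0.183% of the counts of Rpl3 and the copy together. Set against the sum of Rpl3 and Rpl3-ps1, Rpl3l was 1.88 ± 0.0259-fold higher in the gene table and 1.85 ± 0.178-fold higher in the second table. Rpl3l therefore lay above Rpl3 with or without the copy, in both mice and both tables, while in the gene table the size of the fold moved by more than 1.5 times. How many of the reads on Rpl3-ps1 came from Rpl3 was not tested. The other 3 annotated copies that share at least 50% of their 31-base words with Rpl3 (Gm5879, Rpl3-ps2 and Gm12816) held at most 0.1 TPM in either mouse in the gene table. No copy of Rpl3l met that threshold, and no 31-base word of Rpl3l was found in the transcripts of another gene, against 37.6% of the words of Rpl3.

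Eef1a2 (ENSMUSG00000016349.10; chromosome 2, 181147653 to 181157014, minus strand) had 588 TPM in replicate 1 and 631 TPM in replicate 2. Eef1a1 (ENSMUSG00000037742.14; chromosome 9, 78478449 to 78489151, minus strand) had 349 and 400.3 TPM. Both values of Eef1a2 lay above both of Eef1a1, with 36171 and 44041 expected counts for Eef1a2 and 16107 and 20913 for Eef1a1. The log2 ratio was 0.75 and 0.66 in the 2 mice, 0.70 ± 0.07 on average, and Eef1a2 held 62.0 ± 1.11% of the summed eEF1A level of 984 ± 66.5 TPM. With the second transcript table Eef1a2 had 673 and 726 TPM and Eef1a1 had 438 and 518 TPM, a log2 ratio of 0.55 ± 0.09.

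Of the 31-base words of Eef1a1, 49.8% also occur in transcripts of other genes, while no word of Eef1a2 does. Only 1 copy of Eef1a1 carried reads among those past the sharing threshold, the processed pseudogene Gm13456 on chromosome 2, with 3.04 and 3.14 TPM. Its counts were 0.734% and 0.664% of the counts of Eef1a1 and its copies, so that adding them gave a fold of Eef1a2 over Eef1a1 of 1.62. Gm26384, annotated as a miRNA gene, was listed at 0.

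Rpl22l1 (ENSMUSG00000039221.10; chromosome 3, 28805436 to 28807424, plus strand) had 34.1 TPM in replicate 1 and 37.3 TPM in replicate 2. Rpl22 (ENSMUSG00000028936.15; chromosome 4, 152325742 to 152334071, plus strand) had 96.5 and 106 TPM. Rpl22l1 was thus the lower gene in each mouse, with a log2 ratio over Rpl22 of -1.50 in both and 26.1 ± 0.00735% of the summed level. Its 385 and 511 expected counts were the fewest of the 6 genes, against 1770 and 2092 for Rpl22. The second transcript table had Rpl22l1 at 56.5 and 66.7 TPM and Rpl22 at 143 and 147 TPM, a log2 ratio of -1.24 ± 0.14. The near identity of the 2 mice in the gene table was not seen there, where the ratio was -1.34 and -1.14. The processed copy Gm15421 held 0.31 and 1.06 TPM in the gene table and was listed at 0 in the second.

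**Figure D2:**
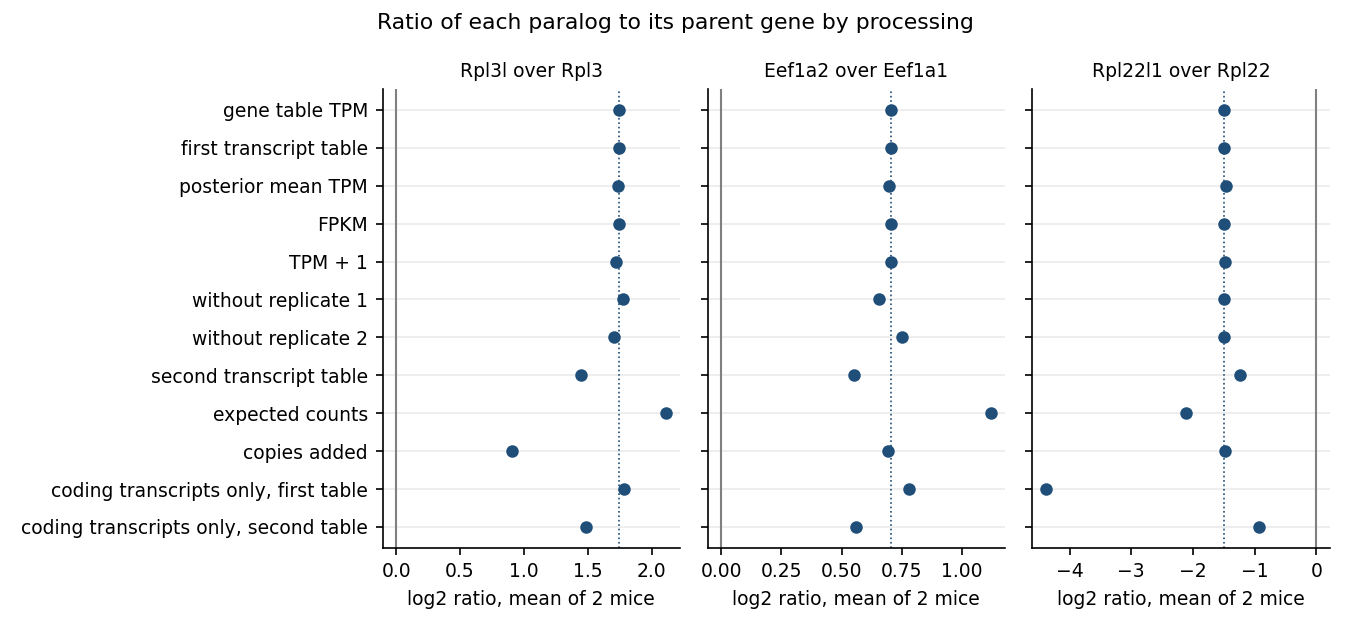
Log2 ratio of each paralog over its parent gene (mean of 2 mice; 0, the solid line, is an equal level) under each way of processing, with a dotted line at the gene table TPM value. Rpl3l and Eef1a2 stay to the right of 0 and Rpl22l1 to the left in every row, while the sizes run between 0.91 and 2.12, between 0.55 and 1.12, and between -4.38 and -0.92.

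The level of Rpl3l was carried by full-length coding RNA in the first transcript table, and was spread over 3 transcripts in the second. Rpl3l-202, with 10 exons and 1375 bases, had 159 and 179 TPM in the first table and 154 and 157 TPM in the second, the most of the 3 in each. The annotation gives this transcript support level 5, the weakest grade. Rpl3l-203, a shorter coding model of 5 exons, had 1.21 and 0 TPM in the first table but 44.3 and 63.8 TPM in the second. Rpl3l-201, which starts at an inner position (24732685), had 2.15 and 2.06 TPM in the first table but 16.3 and 36.5 TPM in the second. The higher gene level in the second table thus lay on those 2 transcripts, and Rpl3l-202 itself was no higher there than in the first. Of the bases of Rpl3l-203 and Rpl3l-201, 92.5% and 78.4% also lie in Rpl3l-202, so reads there fit more than 1 transcript. Whether the inner start is used was not tested.

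The RefSeq windows before the 2 start sites of Rpl3l are shown because the tables differ in how much RNA they give to the inner one. Each holds the 250 bases before a start (GRCm38.p6, plus strand), with matches to CANNTG (the E-box letters), to TATAAA or to the MEF2 motif in capitals, searched on both strands. The outer start lies 6 bases from that of Rpl3l-202, and the inner start is that of Rpl3l-201. The inner window lies within the span of Rpl3l-202.
Outer start, chr17:24727576-24727825: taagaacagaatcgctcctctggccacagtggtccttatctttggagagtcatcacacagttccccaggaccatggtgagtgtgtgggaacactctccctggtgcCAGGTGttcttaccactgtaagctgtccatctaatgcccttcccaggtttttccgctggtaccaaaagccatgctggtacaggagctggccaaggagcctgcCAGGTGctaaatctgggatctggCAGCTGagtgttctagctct
Inner start, chr17:24732435-24732684: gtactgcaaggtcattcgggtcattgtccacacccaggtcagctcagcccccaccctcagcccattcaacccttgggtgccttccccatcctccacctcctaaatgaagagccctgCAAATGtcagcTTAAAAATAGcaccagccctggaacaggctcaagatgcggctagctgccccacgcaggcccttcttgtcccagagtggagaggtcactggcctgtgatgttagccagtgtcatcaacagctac
The outer window holds 3 CANNTG matches and no TATAAA or MEF2 match. The inner one holds 1 CANNTG match and 1 MEF2 match, which do not overlap. Among 32851 windows of the same length, 66.2% hold CANNTG, 12.4% TATAAA and 2.92% the MEF2 motif, and these matches are descriptions of letters only. The windows hold 2 and 3 CG pairs, against a median of 6 over all windows.

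Rpl3 was likewise led by its full-length transcript. Rpl3-201, of 1351 bases, had 31.2 and 36.9 TPM in the first table and 31.6 and 38.4 TPM in the second. The short coding transcript Rpl3-207, whose 460 bases all lie within Rpl3-201, had 16.6 and 14.6 TPM in the first table and 26.3 and 16.2 TPM in the second. A further coding transcript, Rpl3-202, was listed at 0 in the first table and had 25.2 and 30.7 TPM in the second. Protein-coding transcripts held 97.3 ± 0.855% of the TPM of Rpl3 in the first table and 97.8 ± 0.546% in the second, so the tables differed in which coding transcript they used and not in the coding share.

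For eEF1A, Eef1a2 has a single annotated transcript of 2084 bases and 8 exons, so its level is the same as that of Eef1a2-201. Eef1a1-201, the full-length form of Eef1a1, had 283 and 322 TPM in the first table and 266 and 301 TPM in the second. Eef1a1-208, a coding model of 745 bases, had 45.3 and 61.1 TPM in the first table and 171 and 214 TPM in the second. Full-length Eef1a1 differed between the tables by less than the spread of the mice, and the short model was the one that stood higher in the second. Eef1a1-204, a processed transcript, held 3.71 ± 0.880% of the gene in the first table.

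The 2 tables disagreed on which transcripts carry the eL22 genes. Rpl22-201, the main coding transcript of Rpl22, had 82.5 and 91.5 TPM in the first table and 30.1 and 17.4 TPM in the second. Rpl22-205, annotated as a processed transcript without a reading frame although it contains 100% of the coding bases of Rpl22-201, had 0 and 0.34 TPM in the first table and 72.8 and 92.8 TPM in the second. The transcript with the most TPM was thus a coding one in 1 table and a noncoding one in the other.

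Rpl22l1 was led by noncoding models in both tables, but not by the same one. Rpl22l1-209 had 26.9 and 26.8 TPM in the first table and 0.330 and 16.6 TPM in the second, where the 2 mice differed widely. Rpl22l1-202 had 0 and 0.03 TPM in the first table and 28.5 and 32.7 TPM in the second. Both are annotated as processed transcripts, and they cover 96.7% and 86.7% of the coding bases of Rpl22l1-201. The coding transcript Rpl22l1-206 had 2.88 and 6.92 TPM in the first table and 24.3 and 9.09 TPM in the second. Rpl22l1-201, also coding, had 0.25 and 0.39 TPM in the first table and 0.000312 and 7.25 TPM in the second.

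**Figure D3:**
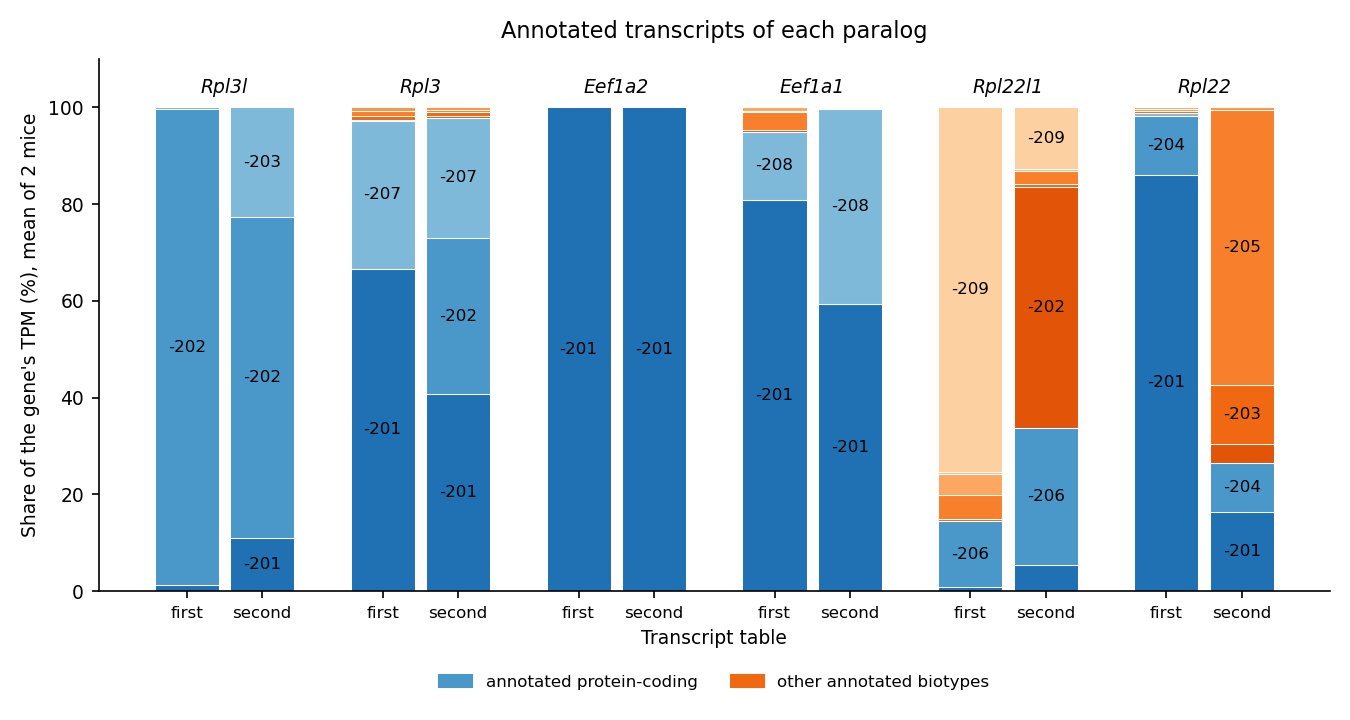
Share of each gene's TPM on its annotated transcripts (%, mean of 2 mice), with the first and the second transcript table side by side for each gene; blue is annotated as protein-coding, orange as any other class, and transcripts over 9% carry their number. Rpl22l1 has 14.4% on coding transcripts in the first table and 33.7% in the second, and Rpl22 has 98.8% in the first and 26.5% in the second, while the other 4 genes have at least 94.99% in both.

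Coding transcripts held 14.4 ± 7.37% of the TPM of Rpl22l1 in the first table and 33.7 ± 13.05% in the second. For Rpl22 the shares were 98.8 ± 0.492% and 26.5 ± 7.20%. In the first table, 1 of the 6 genes, Rpl22l1, had less than 50% of its TPM on coding transcripts in both mice, as did 6.91% of the 4805 genes with at least 10 TPM. In the second table, 2 of the 6, Rpl22l1 and Rpl22, were under that share, against 8.99% of the same genes. The leading transcript differed between the tables in both mice for 2 of the 5 members with several transcripts, against 17.6% of 4518 such genes. Counted over coding transcripts alone, Rpl22 stood 30.6-fold above Rpl22l1 in replicate 1 and 14.2-fold in replicate 2 in the first table, and 1.86-fold and 1.93-fold in the second, so the size of that ratio depends on the table while its direction does not.

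Gene levels in the second transcript table were above those in the gene table for all 6 members, as for most genes. The median shift over genes with at least 10 TPM was 0.21 on the log2 scale. Relative to it, Rpl22l1 was shifted by 0.57, Rpl3 by 0.54, Rpl22 by 0.31, Rpl3l by 0.25, Eef1a1 by 0.14 and Eef1a2 by -0.01. None of the 6 was more than 1.5-fold apart after that shift was removed, against 7.41% of all such genes. Even so, the shifts of Rpl22l1 and Rpl3 exceeded those of 94.6% and 94.0% of these genes. For Rpl22, Rpl3l, Eef1a1 and Eef1a2 the share of genes below was 83.8%, 79.6%, 69.6% and 47.4%.

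Between the 2 hearts the members differed little. The log2 ratio of replicate 2 over replicate 1, of counts scaled with edgeR's trimmed mean of M-values (TMM), was 0.12 for Rpl3l (95% exact counting interval 0.07 to 0.16) and 0.12 for Rpl3 (0.02 to 0.22). It was 0.05 for Eef1a2 (0.03 to 0.07) and 0.14 for Eef1a1 (0.11 to 0.17). For Rpl22l1 it was 0.18 (-0.02 to 0.37), and for Rpl22 it was 0.01 (-0.08 to 0.10). These intervals cover counting error only, and with 1 library a mouse the differences have no replicate check. None of the 6 genes was 2-fold apart, against 71 of 12454 genes with a mean of at least 50 expected counts, or 0.57%. The median ratio over the 12454 genes was 0.01, the same as the value of Rpl22 to 2 decimals. Scaling on the spike-ins shifted all genes alike, to a median of 0.18 and to between 0.18 and 0.35 for the members. The red cell marker sums moved the opposite way, and their part in the members' TPM was not tested.

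Against the other ribosomal protein genes, Rpl3 alone was low and the uL3 pair together was not. The 79 cytosolic ribosomal protein genes, a list that holds Rpl3 and Rpl22 but neither paralog, had a median of 209 ± 19.2 TPM in the gene table, and all 79 reached 1 TPM in both mice, with Rplp1, a protein of the ribosomal stalk, highest at 597 TPM. Rpl3l at 171 ± 13.4 TPM had 49 of them above it and 30 below. Rpl3 at 51.1 ± 2.24 TPM had 72 of the other 78 above it and 6 below (Rpl5, Rpl27, Rpl12, Rpl27a, Rpl36a and Rpl21). The sum of Rpl3l and Rpl3, 222 ± 15.7 TPM, had 30 above it and 48 below. In the second table, where the median was 281 ± 30.0 TPM, Rpl3 had 77 above and 1 below (Rpl19), and the sum had 28 above and 50 below.

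The eL22 pair stayed in the lower part of the same list. Rpl22l1 at 35.7 ± 2.28 TPM had 76 of 79 above it, and Rpl22 at 101.05 ± 6.41 TPM had 66 of the other 78 above it. Their sum, 137 ± 8.68 TPM, had 56 above and 22 below. In the second table Rpl22l1 lay below all 79 genes, and the sum had 61 above and 17 below. Several low members of the list are sensitive to the table as well, with Rpl5 at 11.7 ± 0.467 TPM in the gene table and 109 ± 11.3 TPM in the second, so places near the bottom are uncertain.

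**Figure D4:**
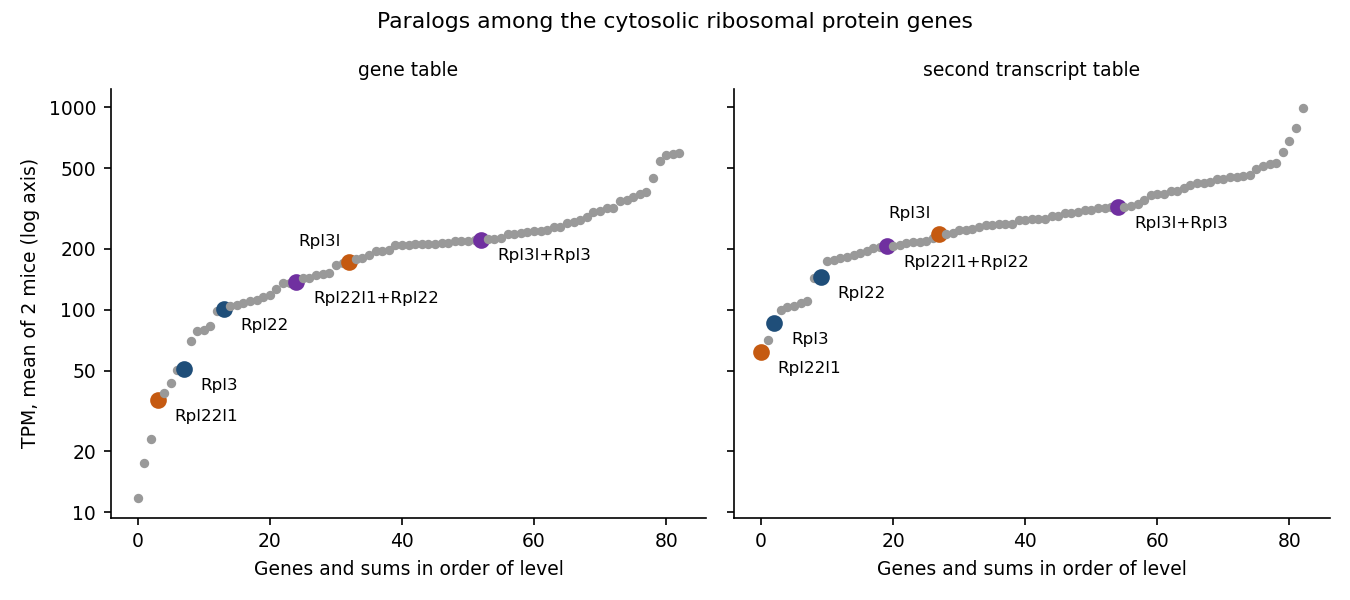
Mean level over 2 mice (TPM, log axis) of the 79 cytosolic ribosomal protein genes (grey, or blue for the parent genes Rpl3 and Rpl22), with the paralogs (orange) and the sum of each pair (purple) placed in order of level, in the gene table (left) and the second transcript table (right). Rpl3 lies near the bottom at 51.1 TPM in the gene table, and the sum of Rpl3l and Rpl3 at 222 TPM lies above the list median of 209 TPM. The copy Rpl3-ps1 is not counted.

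Other paralogs of ribosomal protein genes mostly stood far below their parent gene. Rpl10l, known as a testis form, was listed at 0 in both mice, also in the second transcript table. Beside it Rpl10 had 358 and 411 TPM in that table but 61.6 and 105 TPM in the gene table, so its level depends on the table. In the gene table Rpl39l had 0.07 and 0.06 TPM, beside 108 and 124 TPM for Rpl39. Rps4l, Rpl7l1 and Rps27l had log2 ratios of -5.58 ± 0.24, -3.99 ± 0.05 and -2.78 ± 0.07 over Rps4x, Rpl7 and Rps27. Rpl36al was the exception, at 77.3 and 88.3 TPM beside 45.3 and 42.2 TPM for Rpl36a, a log2 ratio of 0.92 ± 0.21. In the second transcript table that ratio was -0.10 ± 0.24, with -0.27 in replicate 1 and 0.08 in replicate 2, so that neither of the 2 genes was higher there in both mice.

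Among the elongation factors, Eef1a2 had the highest level and the 2 eEF1A genes together exceeded each of the others. Eef2, the factor that moves the ribosome along by 1 codon, stood at 423 and 477 TPM, below Eef1a2 and above Eef1a1 in each mouse, and the eEF1A sum was 2.19 ± 0.0361-fold above it. In the second table Eef2 at 428 and 484 TPM lay below Eef1a1 in each mouse, so the order of Eef1a1 and Eef2 depends on the table. The subunits of the complex that exchanges the nucleotide on eEF1A were lower, with Eef1b2 at 179 ± 7.91 TPM, Eef1d at 111 ± 6.30 TPM and Eef1g at 93.4 ± 8.90 TPM. The eEF1A sum was 5.51 ± 0.128, 8.83 ± 0.0973 and 10.6 ± 0.293 times these levels, and 3.89 ± 0.0159, 7.71 ± 0.00175 and 9.503 ± 0.137 times in the second table. Eif5a, which helps the ribosome through difficult peptide bonds, stood at 162 ± 12.01 TPM, and its paralog Eif5a2 at 0.36 TPM. Eef2k, the kinase that inhibits eEF2, stood at 11.005 TPM.

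**Figure D5:**
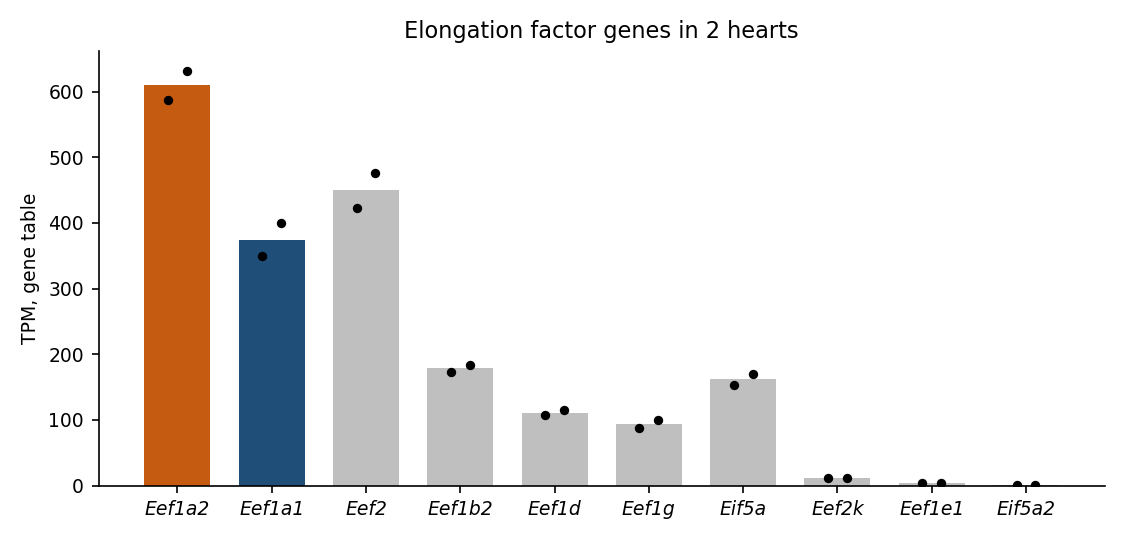
Level (TPM, gene table, linear axis) of the genes for translation elongation factors, with a bar at the mean of 2 mice and a point for each mouse. Eef1a2 (orange) at 588 and 631 TPM is the highest, Eef2 at 423 and 477 TPM lies between it and Eef1a1 (blue) at 349 and 400.3 TPM, and the subunits of the exchange complex lie below 200 TPM.

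Enzymes that modify eEF1A or ribosomal proteins, not only those of the 3 pairs, were also measured. Of 5 genes for methyltransferases of eEF1A, 4 reached 1 TPM in both mice, with Eef1akmt1 at 12.1 ± 0.389 TPM, Eef1akmt2 at 2.87 TPM, Eef1akmt4 at 2.75 TPM and Mettl13 at 2.13 TPM, while Eef1akmt3 stood at 0.005 TPM. Mettl18, which methylates a histidine of Rpl3 in human cells, stood at 1.76 TPM, and the ribosomal oxygenases Riox2 and Riox1 stood at 6.295 and 1.915 TPM. Setd3, listed beside them although its known target is actin, stood at 37.2 ± 1.48 TPM. Among 8 genes for relatives of eEF1A and their partners, 7 reached 1 TPM in both mice. Of those that act in mitochondria, Tufm, the mitochondrial counterpart of eEF1A, stood at 112.07 ± 11.7 TPM, Gfm1, that of eEF2, at 85.6 ± 1.33 TPM, Tsfm, the exchange factor of Tufm, at 21.2 TPM and Guf1 at 11.5 TPM. Hbs1l and Gspt1, GTPases of ribosome rescue and of termination, stood at 29.1 and 24.1 TPM, and Gspt2, a paralog of Gspt1, at 0.14 TPM.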

How the data were processed

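The authors used mm10 with GENCODE M21 annotation, per the file descriptions, and for each library deposited a gene table and a first transcript table made from alignments, and a second transcript table made from reads. The aligner, the quantifiers and any use of strand in counting: not given in the sources used here; column names are those of RSEM for the first 2 tables and of kallisto for the third. Per the file headers, the deposited values are expected counts, TPM, posterior mean TPM, FPKM and interval bounds of TPM, whose level is not stated. The counts carry no molecular identifiers.

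From these, TPM ratios were computed within each library (mean and SD over 2 mice, no test). Second-table TPM was summed per gene. Ratios between mice used rounded expected counts with edgeR 4.0.16 TMM factors, a prior count of 0.5, tested on simulated data, and exact Clopper-Pearson intervals, whose coverage was not; DESeq2 1.42.0 size factors were an alternative. Copies were genes with at least 50% of their 31-base words in a member's transcripts. Coding sequences were aligned with Biopython 1.88, and promoter windows came from RefSeq (GRCm38.p6), which held 5 of the 6 members. The rule for named genes took all members, copies at 1 TPM, the genes next to each member in mean TPM, and of each list the 4 highest and those at 0; some that it takes are not reported here, and others were named after their values were seen. The members and lists were chosen with earlier results of these data known.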

Additional observations from a re-analysis of the deposited data

How the results depend on the processing

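No member pair changed direction under the 11 alternatives tried for each, but several of these could not have changed it. Within a library FPKM is TPM rescaled, the first transcript table sums to nearly the gene table, and adding 1 keeps the order of 2 levels. Leaving out a mouse returns the value of the other, which always lies within the SD of the 2. For Rpl3l over Rpl3 the log2 ratio of 1.74 became 1.45 with the second transcript table, 2.12 in expected counts, 0.91 with copies added and 1.48 with coding transcripts of the second table. For Eef1a2 over Eef1a1, 0.70 became 0.55, 1.12 in expected counts, and 0.78 and 0.56 with coding transcripts of the first and second table. For Rpl22l1 over Rpl22, -1.50 became -1.24, -2.12 in expected counts, -1.46 with posterior mean TPM, -1.48 with 1 added to TPM, -1.47 with copies added, and -4.38 and -0.92 with coding transcripts of the first and second table. Leaving out each mouse gave 1.71 to 1.78, 0.66 to 0.75 and -1.50. Of 68 further values under alternatives, 41 stayed within the limit set for their kind, 26 moved beyond it, and 1 reversed. The limit was the 95% counting interval for ratios between the mice. For the share of genes 2-fold apart and the number of ribosomal protein genes above Rpl3l it was 1.5-fold, and otherwise the SD of the 2 mice. The reversed value was Rpl36al over Rpl36a, at -0.10 with the second table, where the mice differ in sign. The causes were not tested. The share of genes 2-fold apart between the mice was 2.59% with a minimum mean count of 10 and 23% with none. The second-table values for coding share, eEF1A ratios and other paralogs were chosen after the data were seen. Expected counts are not corrected for length, so ratios in them are not ratios of levels. Depth limits Rpl22l1 most, with 385 and 511 counts. No paired analysis between groups was possible because the study has 1 group; the gene ratios are paired within a library.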

Other observations

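By mean TPM among 22015 nuclear protein-coding genes, Eef1a2 ranked 78, directly above Crip2 (605 ± 43.7 TPM), and Eef1a1 ranked 145 between Ndufa10 (379 ± 21.9 TPM), a subunit of respiratory complex I, and the lysosomal protease gene Ctsd (374 ± 8.46 TPM). Rpl3l ranked 330 between Slc2a4 (172 ± 4.57 TPM), the insulin-responsive glucose transporter, and Ablim1 (171 ± 3.68 TPM). Rpl22 ranked 550 between Ces1d and Limch1, at 101.08 and 100.79 TPM. Rpl3 ranked 1074, directly below the small heat shock gene Hspb2 at 51.1 TPM, and Rpl22l1 ranked 1608 between Spag7 and Tmco1, both at 35.7 TPM. None of these neighbours differed from its member beyond the spread of the 2 mice. That follows from how they were picked, next to each member in mean TPM, and with 2 samples a like level says nothing more. In the second transcript table the ranks were 91, 150, 316, 489, 802 and 1095 in the same order of genes.

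Small RNA genes lie inside some members. Rpl3 holds Snord83b, Gm22077, Snord43 and Gm24204, and Eef1a1 overlaps Gm26377; all 5 were listed at 0 in both tables. Gm33051, antisense to Rpl22l1 with 159 shared exon bases, was also listed at 0. Syngr1, on the strand opposite Rpl3, had 35.0 ± 1.94 TPM and shares no exon base with it.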
